A study of Gallus gallus with 18 samples.

Results

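The genes described here are those of the apolipoproteins of yolk very low density lipoprotein (VLDL) and of its assembly. The list named 8 genes by symbol, and a gene was kept where a pair of Ensembl identifier and symbol was found in the study's supplementary gene tables. In this way 6 of 8 were found among the 17108 genes of the count table, namely APOB, APOV1, APOH, APOA4, APOA5 and MTTP. APOA1 and APOC3 were not among the pairs and were not analysed here. RNA was sequenced from 18 samples of 6 Arbor Acres broiler breeder hens at 30 weeks of age. From week 22 the hens lived in individual cages, and 3 hens (library numbers M1721, M1723 and M1725 in ovary) were fed ad libitum while 3 hens (M1724, M6709 and M6710) stayed on the restricted ration of the breeder's guide. Liver, ovary and abdominal fat were taken from each hen, and its libraries are called G, M and F with a shared number, as G1721, M1721 and F1721. Each hen takes the name of its library in the tissue described, or the M name where ovary is set against another tissue. All hens belonged to the same commercial strain and had been reared on that guide before the groups were formed, and the ovary sample was stroma with small follicles.

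In a laying hen, estrogen makes the liver secrete a small form of VLDL that is carried in the blood to the ovary and taken up whole by the growing oocyte. Its main proteins are APOB, the large structural apolipoprotein of each particle, and APOV1 (apovitellenin), a small bird apolipoprotein that protects the particle from lipoprotein lipase. MTTP, the microsomal triglyceride transfer protein, loads lipid onto APOB while the particle is made, and the oocyte takes the particle up through the receptor VLDLR.

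The depth was similar in all tissues, with 14793554 to 23261748 counts per library. Counts scaled to the library total (CPM) were adjusted by TMM factors within a tissue, and 3 counts corresponded to 0.129 to 0.203 CPM without these factors, a floor that covers counting error only. The top 5 genes held 30.3% to 43.6% of all counts in livers and 3.92% to 9.37% elsewhere. The 6 genes together took 9.24% to 12.9% of all counts in livers, against 0.00234% to 0.0301% in ovary libraries and 0.000578% to 0.0329% in adipose libraries. Hepatocyte, adipocyte and granulosa and oocyte markers were each highest in the tissue they belong to. Hen M1723 stood apart in its adipose library F1723, with the lowest summed hepatocyte markers, and in its ovary library, where 3 red cell markers summed to 8349 CPM, against 121 to 1081 CPM in the 5 other ovary libraries. In whole tissue, fewer cells of a type and less RNA per cell cannot be told apart.

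In these hens the genes were expressed mainly in liver. Each of the 6 genes was higher in liver than in ovary and adipose tissue of the same hen in 6 of 6 hens, under both feeding regimes. The edgeR quasi-likelihood test called the 5 genes that passed the filter on low counts in ovary higher in liver than there, where it called 81% of all 13139 genes tested in either direction. It called the 4 genes that passed the filter in adipose tissue higher in liver than there, where it called 76.8% of 12296 genes. APOA4 in both comparisons and MTTP in that with adipose tissue entered only through their liver levels, so their values are given as a description. These shares of all genes are so high that a call alone did not set these genes apart. The size of the difference varied among them. On the log2 scale, liver exceeded ovary by 12.96 (standard error 1.09) for APOB, 12.88 for APOV1, 12.18 for APOH and 11.07 for APOA4, but by 6.09 (standard error 0.31) for MTTP and 4.86 (standard error 0.37) for APOA5, and the edgeR FDR of the 5 genes other than APOA4 was 4e-07 or less. Liver exceeded adipose tissue by 9.36 to 11.50 for all of them except APOA5, for which the difference was 5.84 (standard error 0.37), and the edgeR FDR of the 4 genes other than APOA4 and MTTP was 6.6e-06 or less. Scaled by library size only, the differences of all genes fell by a median of 1.88 for liver against ovary and by 1.36 for liver against adipose tissue.

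**Figure D1:**
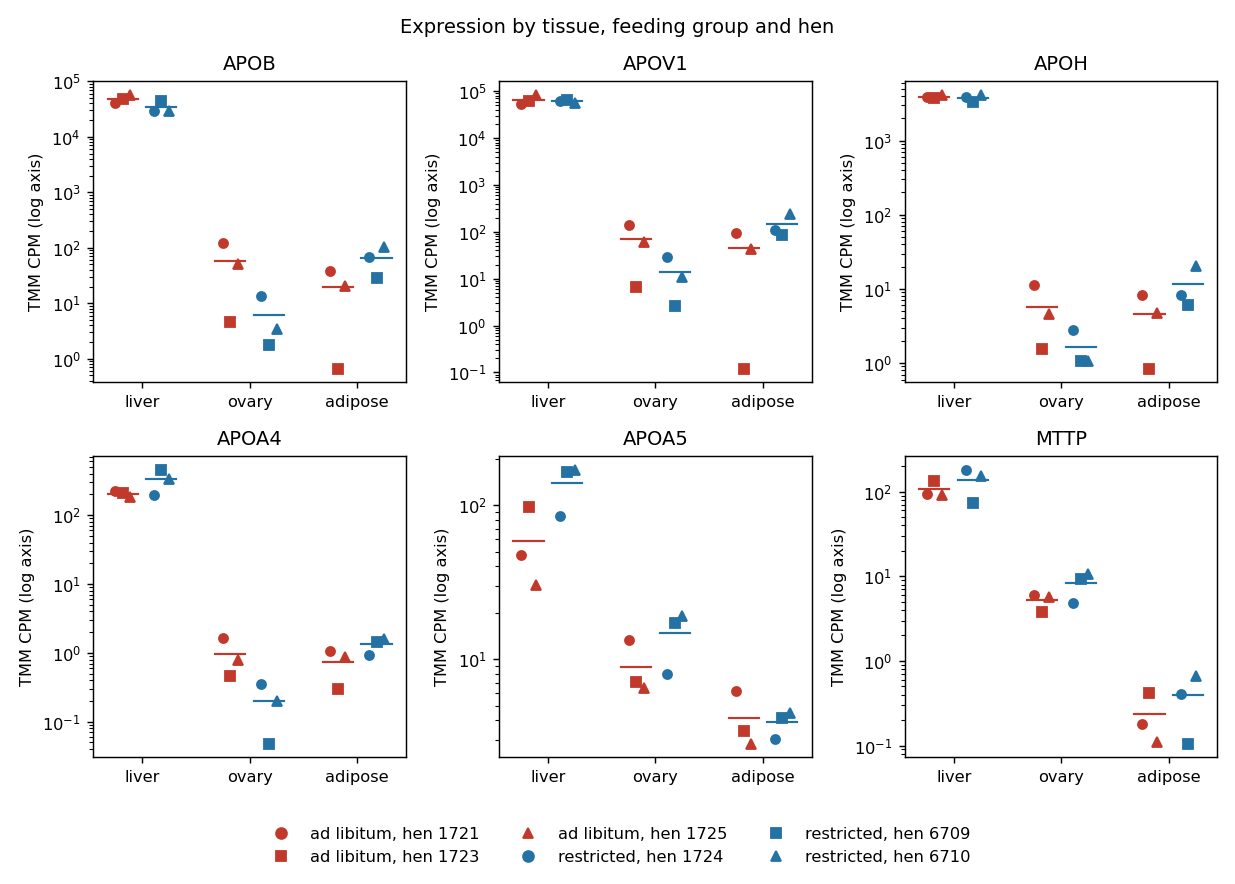
Expression of APOB, APOV1, APOH, APOA4, APOA5 and MTTP as TMM-normalized CPM on a log axis, in liver, ovary and adipose tissue, with 1 point per hen and a line at the mean of 3 hens (red, ad libitum; blue, restricted). In liver the points of APOB, APOV1 and APOH lay close together. In ovary and adipose tissue the values of APOB ranged from 0.659 to 120 CPM.

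APOB (ENSGALG00000016491) was high in every liver. It had 40769, 47966 and 57414 CPM in livers of ad libitum hens G1721, G1723 and G1725, against 29753, 43778 and 28987 CPM in livers of restricted hens G1724, G6709 and G6710. The ad libitum livers were higher on average, but the restricted hen G6709 lay above the ad libitum hen G1721, so the groups overlapped. The log2 fold change was 0.51 (standard error 0.27), and the gene did not pass the threshold (edgeR FDR 0.414).

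APOV1 (ENSGALG00000015134) was at similar levels in the livers of both groups. It had 53679, 61147 and 83776 CPM in livers of hens G1721, G1723 and G1725 (ad libitum), against 62373, 63405 and 54571 CPM in livers of hens G1724, G6709 and G6710 (restricted). The log2 fold change of 0.14 (standard error 0.26, edgeR FDR 0.815) was smaller than its error. Without hen G1725 it was -0.06, so its direction rested on that hen.

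APOH (ENSGALG00000003957), the plasma glycoprotein beta-2-glycoprotein I that binds phospholipid, varied least among livers. Its level was 3854, 3775 and 4162 CPM in ad libitum livers (hens G1721, G1723 and G1725), against 3885, 3311 and 4133 CPM in restricted livers (hens G1724, G6709 and G6710). The highest liver was 1.26 times the lowest. The log2 fold change was 0.06 (standard error 0.20, edgeR FDR 0.907), and it was -0.02 without hen G6709 and -0.04 with library size alone as the scaling.

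APOA4 (ENSGALG00000007109) and APOA5 (ENSGALG00000014368) were lower on average in ad libitum livers, though neither passed the test. APOA4 is an apolipoprotein of triglyceride-rich particles and APOA5 is known from mammals to promote their hydrolysis by lipoprotein lipase. In the RefSeq annotation of GRCg7b, which is not the build of the counts, APOA5, APOA4, APOC3 and APOA1 stand in this order within 5 genes on chromosome 24. APOA4 had 223, 210 and 182 CPM in ad libitum livers of hens G1721, G1723 and G1725, against 196, 457 and 338 CPM in restricted livers of hens G1724, G6709 and G6710. Hens G6709 and G6710 were above all ad libitum hens, and hen G1724 was among them. APOA5 had 47.6, 97.5 and 30.5 CPM in ad libitum livers (hens G1721, G1723 and G1725), against 84.8, 164 and 170 CPM in restricted livers (hens G1724, G6709 and G6710). Only hens G1723 and G1724 made the APOA5 groups overlap.

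The log2 fold change of APOA5 in liver was -1.25 (standard error 0.44, edgeR FDR 0.327), and that of APOA4 was -0.69 (standard error 0.30, edgeR FDR 0.364). Without hen G1723 the value of APOA5 was -1.83 (edgeR FDR 0.615), and over the 13 alternatives its FDR ran from 0.003 to 0.615. Pearson's r of APOA4 and APOA5 over the 6 livers was 0.789 on the log2 scale, given as a description of libraries that also differ in feeding.

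MTTP (ENSGALG00000012271) spread widely in liver. Its level was 94.98, 134 and 90.9 CPM in ad libitum livers of hens G1721, G1723 and G1725, against 182, 72.6 and 154 CPM in restricted livers of hens G1724, G6709 and G6710. The restricted group held both the highest and the lowest liver. The log2 fold change was -0.35 (standard error 0.33, edgeR FDR 0.616).

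Thus in liver 0 of 6 genes passed an FDR of 0.1, where 0.00967% of 10339 genes passed, and 2 of 6, APOA4 and APOA5, had an unadjusted p under 0.05, as did 1412 of all genes. DESeq2 called 241 of all genes and 0 of these 6. The feeding groups did not overlap for 0 of 6 genes, against 21.2% of all genes tested. The median log2 fold change of the 6 genes was -0.15, against 0.00 over all genes.

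**Figure D2:**
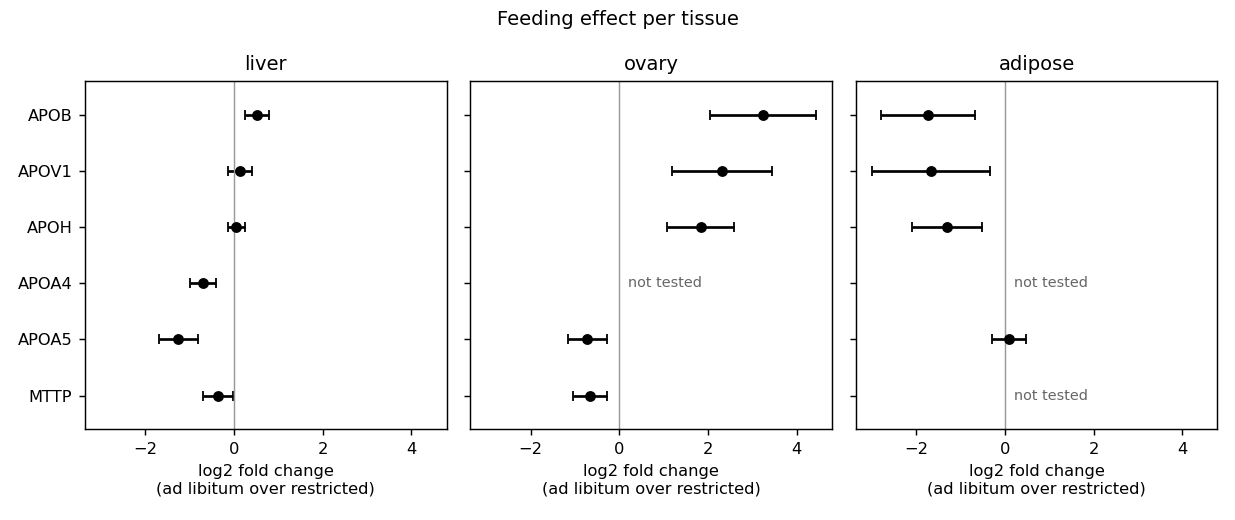
Log2 fold change of each gene, ad libitum over restricted, in liver, ovary and adipose tissue, with bars of 1 standard error from the edgeR quasi-likelihood test (3 hens against 3). Genes below the filter on low counts are marked as not tested. APOB, APOV1 and APOH lay above 0 in ovary and below 0 in adipose tissue, with errors of 0.76 to 1.33, and none passed an FDR of 0.1.

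In ovary the genes fell into different kinds of pattern. APOB, APOV1, APOH and APOA4 were found at small and very uneven levels, while APOA5 and MTTP were found in every ovary at several percent of the liver level. APOB had 120, 4.51 and 50.0 CPM in ovaries of ad libitum hens M1721, M1723 and M1725, against 13.5, 1.73 and 3.41 CPM in ovaries of restricted hens M1724, M6709 and M6710. Hens M1721 and M1725 were above all restricted hens, whereas hen M1723 was below the restricted hen M1724. APOV1 had 138, 6.70 and 61.2 CPM in the ad libitum ovaries of hens M1721, M1723 and M1725, against 28.4, 2.65 and 10.6 CPM in the restricted ovaries of hens M1724, M6709 and M6710. The order of the hens was nearly that of APOB. APOH had 11.2, 1.57 and 4.61 CPM in ovaries of hens M1721, M1723 and M1725 (ad libitum), against 2.77, 1.06 and 1.05 CPM in ovaries of hens M1724, M6709 and M6710 (restricted).

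The means of these genes were higher in ad libitum ovaries, with a wide spread among the 3 hens of a group. APOB averaged 58.2 ± 58.3 CPM in ad libitum ovaries and 6.21 ± 6.37 CPM in restricted ovaries (SD, n = 3 each). The log2 fold change was 3.24 (standard error 1.19, edgeR FDR 0.878), and it was 2.13 without hen M1721 and 4.52 without hen M1724. For APOV1 the log2 fold change was 2.31 (standard error 1.12, edgeR FDR 0.878), with a range of 1.29 to 3.39 when each hen was left out. For APOH it was 1.84 (standard error 0.76, edgeR FDR 0.878), with a range of 0.93 to 2.46. APOB and APOH had unadjusted p-values of 0.0285 and 0.0445 in the edgeR test, and their ranks by p among the 12871 genes were 317 and 550.

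APOA4 was below the filter on low counts in ovary and was not tested with the other genes. It had 34, 9 and 14 counts in ovaries of ad libitum hens M1721, M1723 and M1725, against 6, 1 and 4 counts in ovaries of restricted hens M1724, M6709 and M6710. It was the only one of the 6 genes with feeding groups that stood apart, and this was seen in ovary only. The groups also stood apart for 9.52% of all genes tested in ovary, so this did not set APOA4 apart. The exact Poisson 95% intervals of hens M1723 (0.203 to 0.844 CPM) and M1724 (0.119 to 0.707 CPM) overlapped widely. Without the filter the fitted difference was 2.27 on the log2 scale (standard error 0.79, edgeR FDR 0.861).

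APOA5 and MTTP went the other way in their means. APOA5 had 13.2, 7.10 and 6.49 CPM in ovaries of ad libitum hens M1721, M1723 and M1725, against 7.96, 17.2 and 19.1 CPM in ovaries of restricted hens M1724, M6709 and M6710. MTTP had 6.07, 3.75 and 5.75 CPM in the ad libitum ovaries (hens M1721, M1723 and M1725), against 4.89, 9.28 and 10.6 CPM in the restricted ovaries (hens M1724, M6709 and M6710). Hens M6709 and M6710 were above all ad libitum hens for both genes, and hen M1724 was again within the ad libitum range. The log2 fold changes of -0.72 (standard error 0.43) for APOA5 and -0.67 (standard error 0.39) for MTTP did not pass the threshold (edgeR FDR 0.878 for both).

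The granulosa and oocyte markers also differed among the ovaries. The 12 markers of this list summed to 2661, 1919 and 1887 CPM in the ad libitum ovaries of hens M1721, M1723 and M1725, against 1327, 2975 and 2511 CPM in the restricted ovaries of hens M1724, M6709 and M6710. Hen M6709 was the highest and hen M1724 the lowest, both of the restricted group, and 1 of the 12 markers was at 0 in hen M6710. Of these 12 markers 5 had a positive and 7 a negative log2 fold change in ovary, so the sum does not stand for each of them. The 2 kidney epithelium markers with an identifier, UMOD and CUBN, summed to 148, 71.6 and 70.3 CPM in ad libitum ovaries of hens M1721, M1723 and M1725, against 70.3, 159.9 and 190.04 CPM in restricted ovaries of hens M1724, M6709 and M6710. The 2 intestinal markers, VIL1 and MUC2, summed to 21.8, 24.05 and 10.4 CPM in ad libitum ovaries of hens M1721, M1723 and M1725, against 21.5, 35.4 and 44.98 CPM in restricted ovaries of hens M1724, M6709 and M6710. Both sums were highest in hens M6709 and M6710, as APOA5 and MTTP were, but each sum was mostly that of a single gene. As TMM-normalized means, CUBN had 83.8 CPM in ad libitum and 135 CPM in restricted ovaries, and MUC2 had 17.6 and 32.7 CPM. The other gene of each pair had the opposite order, with 12.4 and 2.51 CPM for UMOD and 1.21 and 0.741 CPM for VIL1. The part of other cell types in the levels of APOA5 and MTTP was not tested.

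In ovary 0 of 5 genes tested passed an FDR of 0.1, where 0% of 12871 genes passed. By an unadjusted p under 0.05 these were 2 of 5 genes and 624 of all genes, and DESeq2 called 48 of all genes and 0 of these 5. The feeding groups did not overlap for 0 of the 5 genes tested, against 9.52% of all genes tested.

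In adipose tissue APOB, APOV1 and APOH were again present at low and uneven levels, but with the means of the feeding groups in the opposite order. The groups overlapped for each of these genes. APOB had 38.3, 0.659 and 20.2 CPM in fat of ad libitum hens F1721, F1723 and F1725, against 67.8, 28.5 and 102 CPM in fat of restricted hens F1724, F6709 and F6710. Hen F1721 exceeded hen F6709, which made the groups overlap. APOV1 had 93.0, 0.120 and 43.1 CPM in fat of hens F1721, F1723 and F1725 (ad libitum), against 107, 83.5 and 241 CPM in fat of hens F1724, F6709 and F6710 (restricted). The value of hen F1723 was 2 counts, with an exact Poisson 95% interval of 0.0146 to 0.435 CPM. APOH had 8.26, 0.839 and 4.78 CPM in ad libitum fat of hens F1721, F1723 and F1725, against 8.29, 6.10 and 20.2 CPM in restricted fat of hens F1724, F6709 and F6710.

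Hen F1723 was the lowest and hen F6710 the highest in fat for APOB, APOV1 and APOH. The log2 fold changes were -1.74 (standard error 1.06) for APOB, -1.66 (standard error 1.33) for APOV1 and -1.31 (standard error 0.78) for APOH, each with an edgeR FDR of 0.907. In hen F1723 each of these genes was below 1 CPM. They thus passed the filter in fat only through the restricted group, where they were higher, so these values are a description. Without hen F1723 the value of APOB was -1.17 (not past the threshold), and without hen F1721 it was -2.66 (edgeR FDR 0.544).

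APOA5 was the steadiest of the genes in fat, with 6.24, 3.42 and 2.83 CPM in ad libitum hens F1721, F1723 and F1725, against 3.03, 4.15 and 4.50 CPM in restricted hens F1724, F6709 and F6710. Between the groups the log2 fold change was 0.10 (standard error 0.39, edgeR FDR 0.971), or -0.32 without hen F1721. MTTP had 2 to 10 counts per adipose library and APOA4 had 0.300 to 1.61 CPM, so neither passed the filter on low counts. In adipose tissue 0 of 4 genes tested passed an FDR of 0.1, where 0.00839% of 11914 genes passed. By an unadjusted p under 0.05 these were 0 of 4 genes and 618 of all genes, and DESeq2 called 78 of all genes and 0 of these 4. Among the 4 genes tested 0 had groups that did not overlap, against 8.77% of all genes tested.

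The levels outside the liver were then set against the liver of the same hen, on plain CPM. For APOB the median over 6 hens was 0.0265% of the liver level in ovary and 0.0787% in adipose tissue, and for APOV1 it was 0.0304% and 0.151%. ALB, the plasma albumin gene that defines hepatocytes, stood at 0.0263% in ovary and 0.124% in adipose tissue, and the median gene of 15 hepatocyte markers at 0.0802% and 0.192%. APOB and APOV1 thus had shares of the liver level like those of albumin. APOH was at 0.0535% in ovary and 0.198% in adipose tissue, and APOA4 at 0.192% and 0.436%.

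APOA5 and MTTP stood apart from this range in ovary. APOA5 in ovary was at 10.9% of the liver level in the median hen (range 7.35% to 27.4%), and MTTP was at 6.57% (range 2.44% to 12.9%). In adipose tissue APOA5 was at 3.60% (range 2.25% to 12.6%), whereas MTTP was at 0.201%, close to the median hepatocyte gene. The highest share of any of APOB, APOV1, APOH and APOA4 in ovary was 0.731%, below the lowest share of APOA5 and of MTTP. These shares are lower when the libraries of all tissues are scaled by TMM together, with 3.08% for APOA5 and 1.74% for MTTP in ovary.

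**Figure D3:**
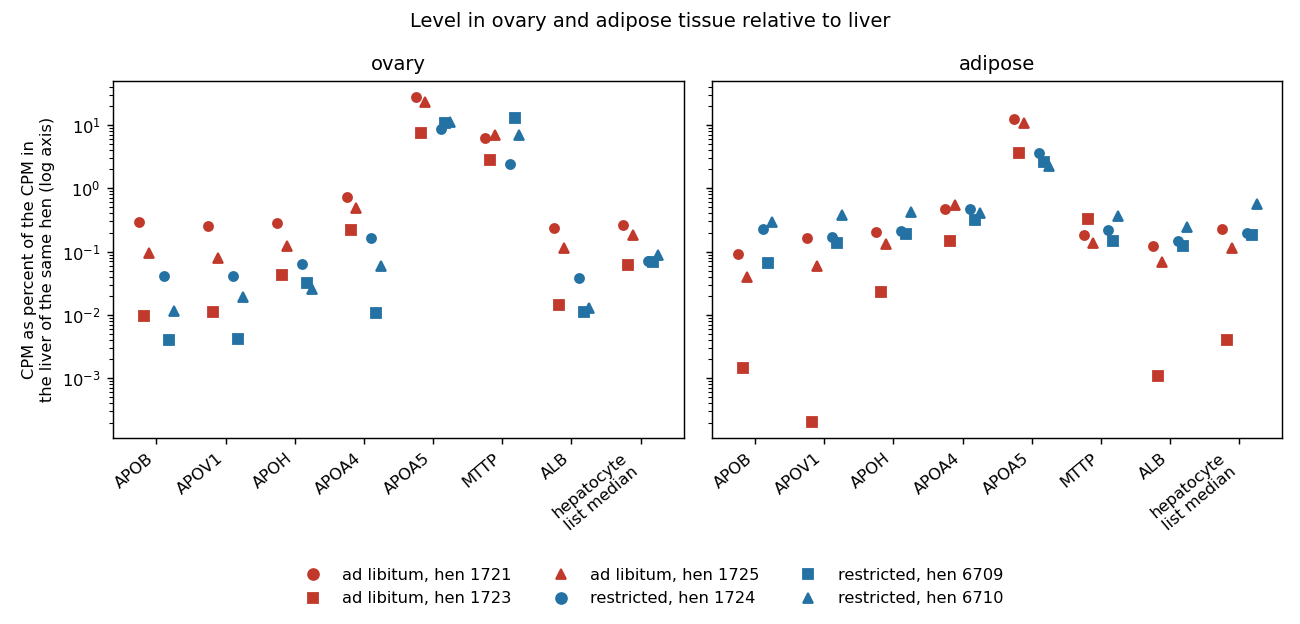
CPM in ovary and in adipose tissue as a percentage of the CPM in the liver of the same hen, on a log axis, for the 6 genes, ALB and the median gene of the hepatocyte list, with 1 point per hen (red, ad libitum; blue, restricted). In ovary APOA5 and MTTP lay between 2.44% and 27.4%, while APOB, APOV1, APOH and APOA4 lay at or below 0.731%, and APOB and APOV1 spanned about the range of ALB.

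Hen by hen, the shares of APOB and APOV1 followed those of albumin. In ovary hen M1721 had the highest share of all of them, with 0.290% for APOB, 0.254% for APOV1 and 0.235% for ALB. In adipose tissue hen F1723 had the lowest, with 0.00143% for APOB, 0.000204% for APOV1 and 0.00107% for ALB. The ratio of APOB to ALB, divided by that ratio in the liver of the same hen, was between 0.36 and 1.23 in the 6 ovaries (median 0.88) and between 0.545 and 1.56 in the 6 adipose samples (median 0.967). For APOV1 it was between 0.38 and 1.52 in ovary (median 0.928) and between 0.191 and 1.52 in adipose tissue (median 1.14). So in the median APOB and APOV1 kept close to their liver proportions to ALB, although APOB itself ranged 69.4-fold over the ovaries and 154-fold over the adipose samples. Single hens departed from these proportions, with 0.36 for APOB and 0.38 for APOV1 in hen M6709. Hen F1723 had 0.191 for APOV1, on 2 counts.

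The other genes did not keep these proportions equally. The ratio of APOH to ALB was 1.07 to 2.96 times that in liver over the ovaries. For APOA4 it was 0.959 to 15.4 times, for APOA5 116 to 955 times and for MTTP 26.8 to 1163 times that in liver. In adipose tissue hen F1723, where ALB was lowest, stood apart. In the 5 other hens the ratio to ALB was 1.47 to 1.90 times that in liver for APOH, 1.64 to 7.92 times for APOA4 and 1.21 to 1.98 times for MTTP, against 21.6, 139 and 304 times in hen F1723. APOA5 was at 9.12 to 3406 times over the 6 hens. MTTP in fat was thus near its liver proportion to ALB in 5 of 6 hens, on 2 to 10 counts per library. The summed hepatocyte markers were 472, 108 and 251 CPM in ad libitum ovaries of hens M1721, M1723 and M1725, against 139, 117 and 160 CPM in restricted ovaries of hens M1724, M6709 and M6710. In fat they were 318, 57.5 and 158 CPM in the ad libitum hens F1721, F1723 and F1725, against 315, 280 and 581 CPM in the restricted hens F1724, F6709 and F6710. Of the 12 markers tested in ovary, 9 had a positive and 3 a negative log2 fold change. The ovary sum thus does not stand for each of them. As TMM-normalized means, ALB had 135 CPM in ad libitum and 26.4 CPM in restricted ovaries. TAT had 23.2 and 36.2 CPM in the same order of groups, and FGG had 14.3 and 24.1 CPM. All 15 markers were above 0 counts in every ovary, and 2 of them were at 0 in the fat of hen F1723. The part of hepatocyte transcripts, from whatever source, in the levels of APOB, APOV1, APOH and APOA4 outside the liver was not tested.

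**Figure D4:**
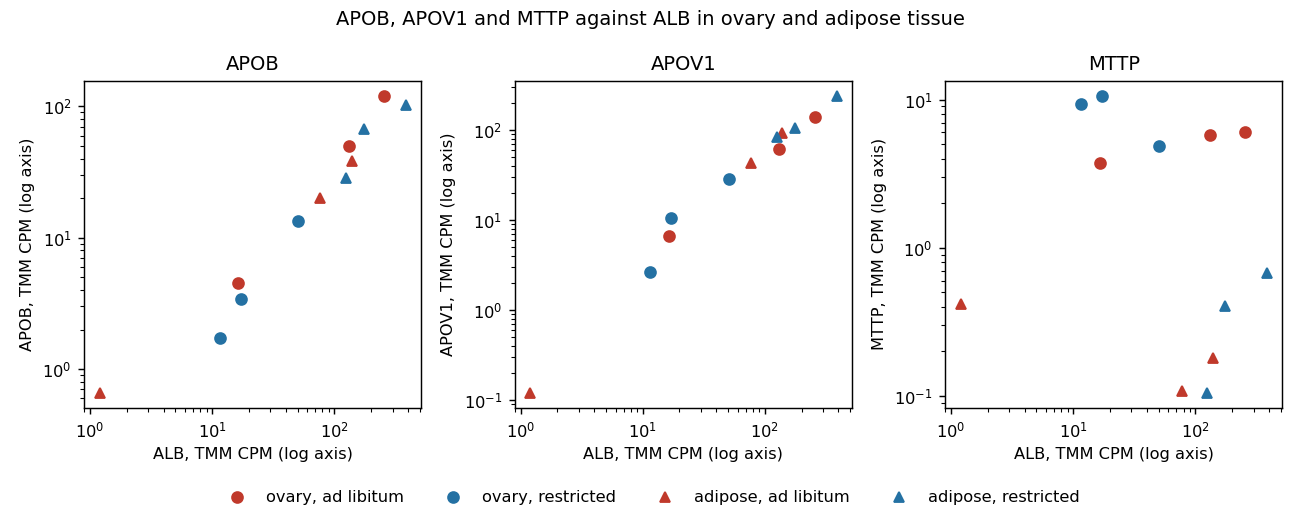
APOB, APOV1 and MTTP against ALB as TMM-normalized CPM, both axes log, in the 6 ovary (circles) and 6 adipose (triangles) libraries (red, ad libitum; blue, restricted). APOB and APOV1 lay along a line with ALB in both tissues, down to hen F1723 in adipose tissue at 0.659 and 0.120 CPM, whereas MTTP stayed between 3.75 and 10.6 CPM in ovary at any level of ALB.

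Outside the liver the same grouping was seen in how the genes varied together. Over the 6 ovaries, Pearson's r on the log2 scale was 0.905 to 0.981 among APOB, APOV1, APOH and APOA4. APOA5 and MTTP had an r of 0.884 with each other and of -0.28 to -0.44 with those 4 genes. Over the 6 adipose samples r was 0.900 to 0.988 among APOB, APOV1, APOH and APOA4, and -0.05 to 0.42 between any of these and APOA5 or MTTP. These values describe 6 libraries that share the feeding contrast, and MTTP and APOA4 rest on few counts in adipose tissue. In liver this grouping was not seen. The pair APOB and APOV1 had an r of 0.671 there, but r of the other pairs among APOB, APOV1, APOH and APOA4 was -0.619 to 0.17.

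The genes most like APOB over all 18 libraries were sought by the root mean square difference of log2 CPM, after each gene was centred on its own mean. The nearest 5 of 13875 genes were VTG2 (0.393), ALB (0.459), APOV1 (0.542), VTG3 (0.646) and PIT54 (0.751), where the median over all genes was 6.38. VTG2 and VTG3 encode vitellogenins, the other main yolk precursors, and PIT54 encodes a hemoglobin-binding plasma protein of birds. For APOV1 the nearest were ALB (0.314), VTG2 (0.400), APOB (0.542), PIT54 (0.902) and VTG3 (0.977). From APOB, APOH ranked 13 and APOA4 ranked 68, while MTTP ranked 197 and APOA5 ranked 326. The measure includes the step between liver and the other tissues, which many liver genes share.

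Between ovary and adipose tissue, averaged over the feeding groups, MTTP and APOA5 were higher in ovary. The log2 difference was 3.93 for MTTP, which entered only through its ovary level, so this value is a description. It was 1.01 (standard error 0.31, edgeR FDR 0.0115) for APOA5, and both genes were higher in ovary in 6 of 6 hens. APOH was lower in ovary, with a log2 difference of -1.75 (standard error 0.60, edgeR FDR 0.0229), a call that was lost without hen M6710 (edgeR FDR 0.127). For APOB the difference was -1.42 (edgeR FDR 0.163) and for APOV1 it was -1.88 (edgeR FDR 0.105). With the hen as a block, both became calls, at -1.47 (edgeR FDR 0.00806) for APOB and -1.72 (edgeR FDR 0.0449) for APOV1. Without hen M1723 they were also called, with an edgeR FDR of 0.0573 for APOB and 0.0212 for APOV1, and without hen M1724 with an FDR of 0.0963 and 0.0805. So, with MTTP counted, 3 of 5 genes tested were called without the block and 5 of 5 with it. Of all 13233 genes, 72.7% were called without the block, and 8827 to 9539 genes were called when each hen was left out. The share of all genes with the block is not given here, so the 5 of 5 is a description.

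That average hid a contrast between the feeding groups. In CPM without TMM factors, the ratio of ovary to adipose tissue in the same hen was 3.21, 6.64 and 2.39 for APOB in ad libitum hens M1721, M1723 and M1725, against 0.182, 0.0595 and 0.0393 in restricted hens M1724, M6709 and M6710. APOB was thus higher in ovary than in fat in each ad libitum hen and lower in each restricted hen, and so it was with TMM factors over all tissues (1.75 to 4.83 in ad libitum hens, against 0.0266 to 0.146 in restricted hens). For APOV1 the ratio was 1.52, 54.2 and 1.37 in the ad libitum hens M1721, M1723 and M1725, against 0.243, 0.0310 and 0.0517 in the restricted hens M1724, M6709 and M6710. With TMM factors over all tissues its lowest ad libitum ratio was 1.003. For APOH it was 1.39, 1.82 and 0.930 in ad libitum hens M1721, M1723 and M1725, against 0.306, 0.170 and 0.0611 in restricted hens M1724, M6709 and M6710. ALB showed the same order, with 1.89, 13.3 and 1.65 in the ad libitum hens M1721, M1723 and M1725, against 0.265, 0.0901 and 0.0517 in the restricted hens M1724, M6709 and M6710.

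APOA5 had the reverse order at a smaller size. Its ratio was 2.17, 2.02 and 2.21 in ad libitum hens M1721, M1723 and M1725, against 2.40, 4.05 and 4.97 in restricted hens M1724, M6709 and M6710. The ratio of MTTP ranged from 8.67 to 51.0 in ad libitum hens, against 11.1 to 86.4 in restricted hens, so the groups overlapped. Among the 5 genes tested, the ratios of the feeding groups did not overlap for 4, against 9.20% of the 13233 genes. APOB, APOV1 and APOH count among these 4 and vary together, so they are not separate observations. MTTP, among the 5, had passed the filter through ovary only. This comparison within hens was chosen after the values had been seen.

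**Figure D5:**
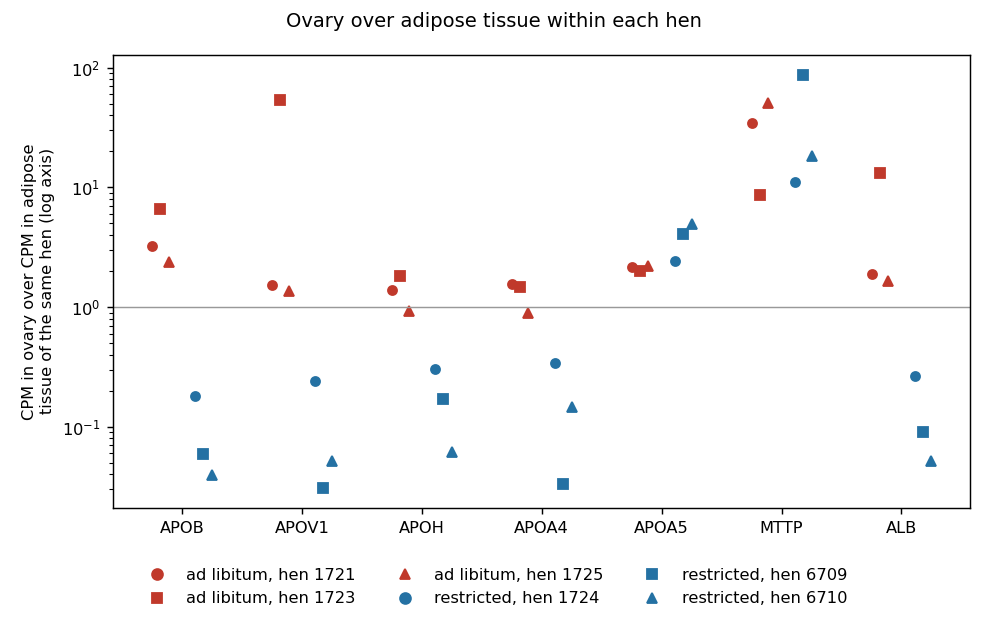
CPM in ovary over CPM in adipose tissue of the same hen, on a log axis, for the 6 genes and ALB (red, ad libitum; blue, restricted), with a line where both tissues were equal. For APOB and APOV1 the 3 ad libitum hens lay above 1 and the 3 restricted hens below it. ALB had the same order.

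The formal test of this contrast did not pass the correction for all genes. The feeding effect in ovary minus that in adipose tissue was 4.97 on the log2 scale for APOB (standard error 1.77, edgeR FDR 0.982), 3.97 for APOV1 (edgeR FDR 0.982) and 3.15 for APOH (edgeR FDR 0.982). With the hen as a block it was 5.50 for APOB (standard error 0.72, edgeR FDR 0.820). An exact permutation test of the log2 ratio per hen, 3 hens against 3, two-sided, gave p = 0.1 for APOB, APOV1, APOH, APOA4 and APOA5 and p = 1 for MTTP, and 0.1 is the smallest p that this design allows. Where the ratios of the groups do not overlap, this p is fixed at 0.1, so the permutation test adds nothing to that observation. APOA4 was below the filter on low counts in both tissues. Leaving out each hen gave 4.20 to 6.25 for APOB in the edgeR fit.

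In the interaction tests 0 of 5 genes passed in ovary minus adipose tissue, where 0% of 13233 genes did, and 614 of them had p below 0.05 before adjustment. APOB and APOH were the 2 of 5 with such a p, and the 5 include MTTP, which was below the filter in adipose tissue. In liver minus ovary 0 of the 5 genes above the filter in ovary passed, where 0% of 13139 genes did. Such a p was found for 883 of all genes and for 1 of the 5, APOH. In liver minus adipose tissue 0 of the 4 genes above the filter in adipose tissue passed, where 0% of 12296 genes did. Such a p was found for 620 of all genes and for 1 of the 4, APOA5. DESeq2 called 9, 48 and 35 of all genes in these comparisons. APOA4 entered liver minus ovary only through its liver level and rests on 1 to 34 counts per ovary, so its log2 value of -2.99 (edgeR FDR 0.732, DESeq2 FDR 0.049) is a description.

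Other genes of the pathway were followed from lists, of which only the genes with a known identifier could be measured. No gene of these lists passed an FDR of 0.1 for feeding in any tissue. In liver, 5 of 18 listed genes of VLDL assembly and secretion were tested, with 3 higher and 2 lower in ad libitum hens by sign and a median log2 fold change of 0.14, against 0.00 over all genes. MTTPL, named as a relative of MTTP, had 812 ± 109 CPM in ad libitum livers and 739 ± 139 CPM in restricted livers (SD, n = 3 each). SAR1B, the GTPase that starts the transport vesicles of lipoproteins, had 363 ± 40.8 CPM in ad libitum livers and 364 ± 33.5 CPM in restricted livers. SURF4, a cargo receptor for secreted lipoproteins, had 77.4 ± 19.8 CPM in ad libitum livers and 52.2 ± 11.5 CPM in restricted livers (edgeR FDR 0.364), and HSP90B1, a chaperone, had 1539 ± 588 CPM and 1012 ± 215 CPM in the same order of groups (edgeR FDR 0.417).

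In ovary MTTPL had 56.3 ± 21.7 CPM in ad libitum hens and 84.2 ± 30.8 CPM in restricted hens (edgeR FDR 0.878). It was the only 1 of 5 tested assembly genes with a negative log2 fold change there, as MTTP also had. Whether reads shared by MTTP and MTTPL were split in the counting is not given in the sources used here. In fat MTTPL had 0.779 CPM in its lowest library and passed the filter only through the restricted group, where it was higher. Its sign there is therefore a description. With MTTPL counted, all 5 tested genes of this list had negative log2 fold changes in fat, with a median of -0.52, against 0.01 over all genes. The adipocyte markers had the same sign there in 6 of 7, with a median of -0.61, and summed to 18713, 15734 and 16057 CPM in fat of ad libitum hens F1721, F1723 and F1725, against 28810, 14886 and 30209 CPM in fat of restricted hens F1724, F6709 and F6710. LPL is on that list. The part of adipocyte content in these values was not tested.

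The receptor VLDLR, through which the oocyte takes up VLDL and vitellogenin, was highest in ovary. It had 752 ± 299 CPM in ad libitum ovaries and 882 ± 405 CPM in restricted ovaries (SD, n = 3 each), with a log2 fold change of -0.23 (edgeR FDR 0.929). In adipose tissue it had 88.4 ± 27.9 CPM in ad libitum hens and 131 ± 37.1 CPM in restricted hens, and in liver 5.77 ± 0.86 CPM in ad libitum hens and 4.10 ± 0.85 CPM in restricted hens. LRP1, a receptor of lipoprotein remnants in many tissues, had 543 ± 180 CPM in ad libitum ovaries and 368 ± 288 CPM in restricted ovaries. CD36, a fatty acid transporter, had 75.1 ± 8.93 CPM in ad libitum ovaries and 33.7 ± 17.7 CPM in restricted ovaries (edgeR FDR 0.878). CD36 is also on the list of macrophage and leukocyte markers, of which 6 of 6 had positive log2 fold changes in ovary (median 1.36). Of 6 receptors tested in ovary, 4 had a positive and 2 a negative log2 fold change.

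Among lipases and remodelling proteins, LPL, the lipase that APOV1 inhibits, was highest in adipose tissue, with 1722 ± 1082 CPM in ad libitum hens and 3516 ± 1952 CPM in restricted hens (SD, n = 3 each, edgeR FDR 0.907). In liver ANGPTL4, an inhibitor of that lipase, had 5.67 ± 1.64 CPM in ad libitum hens and 38.2 ± 16.3 CPM in restricted hens. Its log2 fold change of -2.75 (standard error 0.38) had an unadjusted p of 7.9e-05 and did not pass (edgeR FDR 0.274). The means of ANGPTL4 had the opposite order elsewhere, but neither difference passed. They were 24.8 CPM in ad libitum and 9.41 CPM in restricted ovaries (log2 fold change 1.39, standard error 0.57, edgeR FDR 0.878). In fat ANGPTL4 had 22.8 ± 6.42 CPM in ad libitum hens and 12.6 ± 18.3 CPM in restricted hens. The SD of restricted fat exceeded its mean, and the log2 fold change of 0.85 was smaller than its standard error of 1.03 (edgeR FDR 0.9185). PLTP, the phospholipid transfer protein, had 122 ± 44.9 CPM in ad libitum ovaries and 39.8 ± 21.1 CPM in restricted ovaries (edgeR FDR 0.878). Of the genes of this list tested, 1 had a positive and 4 a negative log2 fold change in liver. These counts were 4 and 1 in ovary and 3 and 3 in adipose tissue.

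Of 9 regulators of apolipoprotein genes tested in liver, 6 had a positive and 3 a negative log2 fold change, with a median of 0.48. ESR1, the estrogen receptor through which the hen's liver is switched to yolk precursor synthesis, had 36.0 ± 4.05 CPM in ad libitum livers and 17.0 ± 4.58 CPM in restricted livers (SD, n = 3 each). Its log2 fold change was 1.08 (standard error 0.23, edgeR FDR 0.324). PPARA, a fatty acid sensor, had 69.2 ± 6.84 CPM in ad libitum livers and 42.5 ± 14.5 CPM in restricted livers (edgeR FDR 0.339). SREBF1, a regulator of lipid synthesis, had 39.4 ± 13.1 CPM in ad libitum livers and 67.3 ± 33.8 CPM in restricted livers (edgeR FDR 0.424), and CREB3L3 had 71.0 ± 21.2 CPM and 84.4 ± 17.9 CPM in the same order of groups.

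Most of the other yolk precursor genes outside the liver had log2 fold changes of the same sign as APOB and APOV1. In ovary 6 of 6 were positive, with a median of 1.99, against -0.02 over all genes, and in adipose tissue 5 of 6 were negative, with a median of -1.41. VTG2 had 162 ± 152.1 CPM in ad libitum ovaries and 20.6 ± 17.97 CPM in restricted ovaries (SD, n = 3 each, edgeR FDR 0.878). TF, transferrin, had 290 ± 148 CPM in ad libitum ovaries and 117 ± 38.5 CPM in restricted ovaries. The 12 hepatocyte markers tested in ovary had a median of 1.02, with 9 positive, and in adipose tissue 13 of 14 were negative, with a median of -1.34. TTR stands in both lists and was the exception in adipose tissue in each, with a log2 fold change of 1.18. Some genes of both lists were below 1 CPM in a library of the lower group and passed the filter only through the higher group. The signs and medians of these lists are therefore a description. Macrophage and leukocyte markers in ovary had summed levels of 530 to 859 CPM in ad libitum hens, against 107 to 426 CPM in restricted hens, and the part of these cells in the values of ovary was not tested. Of 11 other apolipoprotein genes listed, 3 had an identifier (APOD, APOO and APOLD1), and none passed in any tissue.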

How the data were processed

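The authors deposited 18 columns of raw counts, without normalization, with Ensembl genes as rows. Per the paper's methods and the submitters' processing notes, reads were mapped to Gallus_gallus-5.0 with TopHat2 2.1.1 and Bowtie2 2.0.6 and counted in R. The strand setting and the treatment of reads shared by related genes are not given in the sources used here. Counts were used as deposited. A gene was tested where all libraries of any group exceeded 1 CPM, with edgeR 4.0.16 (TMM, quasi-likelihood test, Benjamini-Hochberg FDR under 0.1) in R 4.3.3, on the 6 libraries of a tissue for feeding and on 12 libraries for tissues and interactions. A gene could thus pass through only the group where it was high. Each standard error was derived from the log2 fold change and its F statistic and so restates the test. Unless a block is named, the fits of 12 libraries had no term for the hen. Their standard errors and FDRs thus leave out the pairing of tissues within a hen. Log2 values for likeness and correlations had 0.5 CPM added, and those of the permutation test of ratios used a prior of 0.5 counts. DESeq2 1.42.0 and the other alternatives are given with the closing observations. For part of the comparisons the tests were run on simulated data, where only the recovery of the median log2 fold change was required. That requirement does not cover the rate of false calls. Figures were drawn in Python with matplotlib 3.10.9.

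The members and lists were chosen with earlier results of these data known. Symbols came from 5821 pairs in the study's supplementary tables, which lean to genes that differed there, so list counts do too. All members were named. Other genes were named as up to 4 per list and tissue by mean CPM, or as the 5 nearest to APOB and APOV1. MTTPL and ANGPTL4 in ovary, MTTPL in fat and VLDLR in liver fall outside this rule and were named after their values were seen. The same number marks the same hen in 3 tissues. Deviations from group means correlated at 0.016 to 0.253 between ovary and fat of a hen, and at -0.167 to 0.247 between liver and the other tissues. Such correlations were not computed between different hens, so they cannot check the pairing. The feeding groups share no hens. The 3 hens of a group are separate animals. Sequences and promoter motifs were not used here, and of gene positions only the order of neighbouring genes in another build. A gene of the lists is not reported here.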

Additional observations from a re-analysis of the deposited data

How the results depend on the processing

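Of 569 values of single genes under alternative settings, 537 kept their direction and their side of the threshold, 18 changed sign, 13 passed where the main test did not, and 1 no longer passed. The number of genes called for feeding depended on the test, with 1 for liver, 1 for adipose tissue and 0 for ovary by quasi-likelihood. DESeq2 called 241, 78 and 48, the likelihood ratio test with trended dispersions 401, 352 and 231, and with gene-wise dispersions 146, 88 and 24. The fit of all 18 libraries called 0 in liver and 3 in adipose tissue. The likelihood ratio test with trended dispersions alone called genes described here, namely 1 in liver (APOA5, FDR 0.003), 2 in adipose tissue (APOB and APOV1, FDR 4e-05 and 0.000165) and 3 in ovary (APOB, APOV1 and APOH, highest FDR 0.0745). APOB and APOV1 had passed the filter in adipose tissue only through the restricted group. Leaving out each hen gave 0 to 104 calls in liver, the highest without hen G6709, 0 to 6 in adipose tissue, 0 to 7 in the interaction of liver and adipose tissue and 0 to 1 in that of liver and ovary. DESeq2 called 35, 48 and 9 genes in the interactions of liver and adipose tissue, liver and ovary, and ovary and adipose tissue, and 1 described here (APOA4 in liver and ovary, under the filter in ovary).

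Between ovary and adipose tissue 5 genes were called with the hen as a replicate block, where 3 were called without it. When each hen was left out 2 to 5 were called, against 8827 to 9539 of all genes. Each of these counts of genes described here includes MTTP. The block changed no other call. Scaling by library size alone moved the median log2 difference of all genes by -1.36 for liver against adipose tissue, by -1.88 for liver against ovary, by 0.49 for ovary against adipose tissue and by -0.12 for the interaction of liver and adipose tissue. With TMM over 18 libraries the shares of the liver level were 0.186% for APOA4 and 0.0806% for MTTP in adipose tissue and 1.74% for MTTP in ovary.

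The values that changed sign were smaller than their standard errors in the main test, and none was called in any setting. APOH in liver was -0.0375 with library size alone and -0.0245 to 0.13 with each hen left out, APOV1 in liver -0.0586 to 0.27, and APOA5 in adipose tissue -0.32 to 0.31. In liver minus adipose tissue APOA4 was -0.0258 with library size alone and -0.28 to 0.39 with each hen left out, and MTTP was -0.19 to 0.75. MTTP in liver minus ovary was -0.10 to 0.83. MTTP in ovary minus adipose tissue was -5e-04 with DESeq2, -0.0118 with RLE factors, -0.0487 with library size alone and -0.38 to 0.89 with each hen left out. The cause was not tested. Levels of 2 to 10 counts, as of MTTP in adipose tissue, are limited by depth. Promoter motifs were planned and were not run.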
